A study of Mus musculus and synthetic construct with 30 samples.

Results

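The respiratory chain genes examined here are the 105 genes of the 26759 in each RNA-seq table whose symbols name a subunit of complexes I to V, an Ndufaf assembly factor of complex I, or 1 of 3 related factors (Cox7a2l, Atp5s and Atp5sl). They were taken by symbol alone: 13 lie on the mitochondrial genome (mt-Nd, mt-Co, mt-Cytb and mt-Atp names) and 92 in the nucleus (Nduf, Sdh, Uqcr, Cox4 to Cox8 and Atp5 names). They were measured in 16 polyA RNA-seq libraries of a mouse strain (Periltm1.1Vlcg) in which a LacZ cassette stands in place of the Peril lincRNA gene, on a mixed C57BL/6J/129S6 background. Embryonic stem cells (mESC) gave 3 WT and 3 KO libraries, all male, from cultures in 2i medium on feeder fibroblasts; these are wells of 1 clone per genotype, and the study's sample sheet lists the KO wells at a later passage. Kidney from embryos at E14.5 gave 3 WT (2 male, 1 female) and 3 KO (1 male, 2 female) libraries from 1 litter, and ganglionic eminence with olfactory bulb (GE/OB) at E14.5 gave 2 WT (both male) and 2 KO (both female) libraries from another litter. Both litters came from heterozygous matings, and in GE/OB genotype and sex cannot be told apart. The mESC p-values below measure the spread between wells, not between clones. Each tissue came from its own litter or clones, so tissue cannot be told apart from litter or clone. The p-values between tissues measure the spread between litter mates and wells.

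The respiratory chain sits in the inner mitochondrial membrane. Complexes I and II pass electrons from NADH and succinate to ubiquinone, complex III passes them to cytochrome c, complex IV passes them to oxygen, and complex V, the ATP synthase, uses the resulting proton gradient to make ATP. The mitochondrial genome encodes the hydrophobic cores of complexes I, III, IV and V, complex II is wholly nuclear, and several complex IV subunits exist as isoforms from separate nuclear genes that are used in different tissues. The mitochondrial genes are transcribed as long precursors that are cut into shorter messages, while each nuclear gene has its own promoter.

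The tables hold expected counts and TPM (a level per length: the count divided by the effective length and scaled to the same total in every library), with 17544707 to 45924887 expected counts per library. Peril had 8.13, 17.5 and 11.5 expected counts in the mESC WT wells and 8.29, 3.0 and 7.22 in the KO wells, so its few reads overlapped between genotypes and were not absent in KO. LacZ stood at 69.6 to 73.7 TPM in the mESC KO wells against 0.02 to 0.07 in the WT wells, and at 44.4 and 45.8 in the GE/OB KO libraries against 0.1 and 0 in WT. Peril had 0 counts in kidney and GE/OB. In kidney LacZ was between 0.08 and 0.47 TPM in both genotypes, so neither gene checks the kidney labels. The markers of each tissue had their highest sum in that tissue. The 8 mESC markers summed to 8296 to 8623 TPM in mESC and 8 embryonic kidney markers to 425 to 522 in kidney. The 8 GE/OB markers summed to 1043 to 1115 in GE/OB. Not every marker followed its sum. The kidney marker Nphs1 had 0.02 to 1.59 TPM in kidney against 1.79 to 4.09 in mESC. The mESC marker Sox2 also had 125 to 163 TPM in GE/OB. Of the 105 members, 101 (13 mitochondrial, 88 nuclear) passed the filter on low counts. Cox6a2, Cox8b and Cox8c had at most 8 counts in any library, and Atp5g2, 1 of 3 genes for the ATP synthase subunit c, was listed at 0 in all 16 libraries. In bulk RNA, fewer cells of a type and less RNA per cell cannot be told apart.

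Kidney gave the mitochondrial members a share of its transcripts that was more than that of mESC and GE/OB. As a percent of all TPM, the 13 mitochondrial genes took 7.38, 7.35 and 7.20% in the mESC WT libraries and 7.64, 8.84 and 7.82% in the KO libraries. In kidney they took 15.7, 17.3 and 17.8% in WT and 15.5, 15.1 and 15.7% in KO. In GE/OB they took 9.24 and 9.55% in WT and 8.83 and 8.004% in KO. No kidney library overlapped with another tissue, whereas both GE/OB KO libraries lay inside the mESC range. The kidney mean, 16.2% ± 1.09 (SD, n = 6), exceeded the mESC mean, 7.71% ± 0.596 (SD, n = 6), by 8.46 percentage points (exact permutation test, two-sided, p = 0.00216, the smallest possible, adjusted over 3 tissue pairs 0.00649). It exceeded the GE/OB mean, 8.91% ± 0.671 (SD, n = 4), by 7.26 points (exact permutation test, p = 0.00952, adjusted 0.0143). GE/OB was above mESC by 1.2 points (exact permutation test, p = 0.0286, adjusted 0.0286), but the sign turned on expected counts, where GE/OB was lower by 0.679 points (exact permutation test, p = 0.00952). Without GE/OB WT 1 that difference was 1.09 points and without WT 3 it was 0.985 (exact permutation test, p = 0.0714 for each).

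The 92 nuclear members took a smaller and steadier share. It was 2.51 to 2.56% of all TPM in mESC, 2.40 to 2.57% in kidney and 1.95 to 2.03% in GE/OB. GE/OB therefore lay below every mESC and kidney library, by 0.560 points against mESC and 0.508 points against kidney (exact permutation test, p = 0.00952 and adjusted 0.0143 for each). Kidney and mESC differed by 0.0513 points (exact permutation test, p = 0.0909), a difference that passed without kidney WT 1 (0.068 points lower in kidney, exact permutation test, p = 0.026) or kidney KO 7 (0.0639, p = 0.0476). Mitochondrial TPM stood at 2.81 to 3.48 times nuclear TPM in mESC, 6.06 to 7.23 times in kidney and 4.06 to 4.71 times in GE/OB, with no overlap between tissues. The nuclear subunits and factors of complex I added up to 0.591 to 0.604% of TPM in mESC, 0.661 to 0.693% in kidney and 0.577 to 0.600% in GE/OB. The nuclear complex IV genes took 0.769 to 0.792% in mESC, 0.666 to 0.780% in kidney, which overlapped with mESC, and 0.491 to 0.518% in GE/OB. The nuclear genes of the ATP synthase, counted with the related factors Atp5s and Atp5sl, fell in steps without overlap. They took 0.808 to 0.835% in mESC, 0.742 to 0.764% in kidney and 0.631 to 0.648% in GE/OB.

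**Figure D1:**
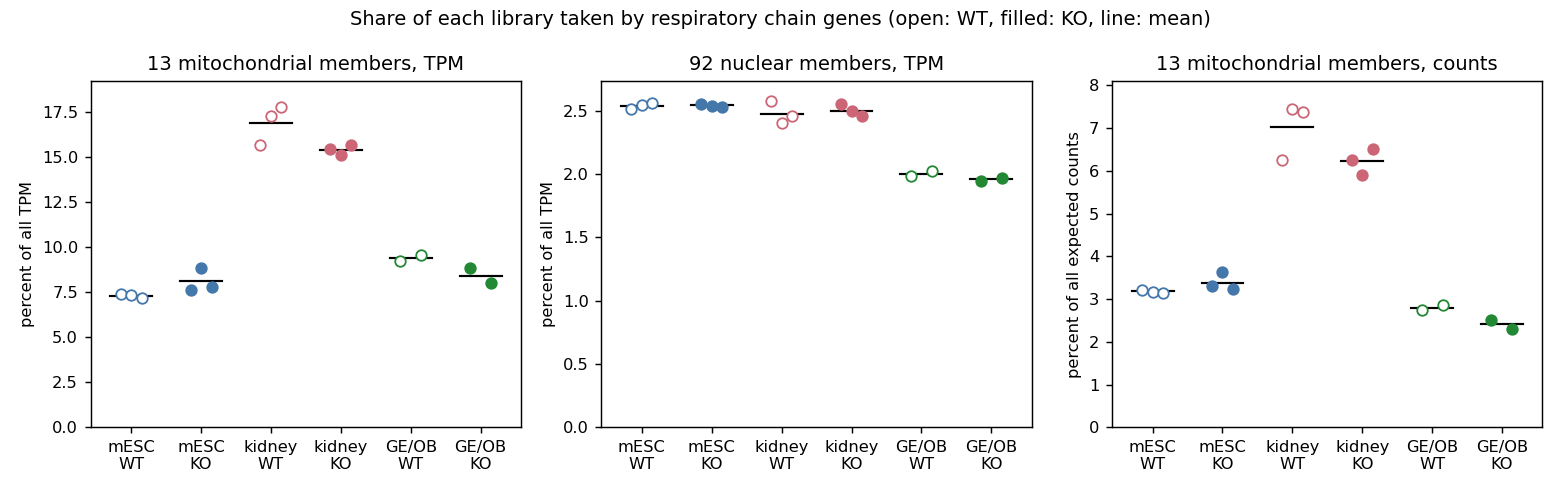
Share of each library taken by the 13 mitochondrial members (left, percent of all TPM; right, percent of all expected counts) and by the 92 nuclear members (middle, percent of all TPM). Points are libraries, open for WT and filled for KO, and lines are group means: kidney stands apart at 15.1 to 17.8% of TPM in the left panel, and GE/OB stands lower than the other tissues in the middle panel.

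The transcripts measured as a whole differed in length between the tissues, which moves TPM against counts. Weighted by TPM, the mean effective length of all other genes was 1548 to 1593 bases in mESC, 1419 to 1499 in kidney and 2030 to 2101 in GE/OB. The median gene was 0.65 higher in GE/OB than in mESC on the log2 TPM scale but 0.06 (WT) and 0.10 (KO) higher on the scale of TMM-scaled counts used by the test. Differences between tissues below are therefore set beside the median of all genes on the same scale.

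The 13 mitochondrial genes did not keep 1 order of level across tissues. mt-Co1, the catalytic core of cytochrome oxidase, ranged from 12368 to 14225 TPM in mESC with a median of 12775, from 14203 to 17774 in kidney with a median of 16521, and stood at 11010, 11394, 10613 and 9388 in GE/OB. mt-Co3, another core subunit of the same complex, ranged from 7929 to 9625 TPM in mESC with a median of 8261, from 25199 to 31770 in kidney with a median of 27035, and stood at 12130, 12573, 11794 and 10481 in GE/OB. The ratio of mt-Co3 to mt-Co1 TPM was thus 0.622 to 0.712 in mESC, 1.10 to 1.12 in GE/OB and 1.44 to 2.08 in kidney, without overlap. The ratio of mt-Co2 to mt-Co1 overlapped between kidney and both other tissues, at 0.792 to 0.839 in mESC, 0.789 to 1.00 in kidney and 0.991 to 1.04 in GE/OB.

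mt-Nd3, a small membrane subunit of complex I, ranged from 3022 to 3972 TPM in mESC, from 9845 to 13288 in kidney and from 3439 to 4363 in GE/OB. mt-Atp6, the proton channel subunit of the ATP synthase, ranged from 7913 to 9406 TPM in mESC, from 19197 to 22501 in kidney and from 9316 to 11501 in GE/OB. mt-Cytb, the mitochondrial subunit of complex III, ranged from 3754 to 4636 TPM in mESC, from 7319 to 9703 in kidney and from 5063 to 6266 in GE/OB. All 3 were highest in kidney, and for mt-Nd3 and mt-Atp6 the mESC and GE/OB ranges overlapped. mt-Nd1 had the highest median TPM of complex I over all libraries, 5550, and in GE/OB its 3943 to 4675 TPM lay below the 5350 to 6132 of mESC. mt-Nd5 and mt-Nd6 lie end to end on opposite strands with 14 shared bases, and their reads there cannot be told apart without strand. Nor can reads anywhere in mt-Nd6 be told from RNA of the opposite strand, so mt-Nd6 may not be a measure separate from mt-Nd5. At 1018 to 1192 and 1059 to 1276 TPM, both were lower in GE/OB than in every mESC library (at least 1391 and 1500 TPM). Across the 13 genes, every kidney library was above every mESC library for 12 and below for 0, beside 38.7% above and 35.1% below among all genes tested. GE/OB was above mESC in this way for 5 and below it for 4, beside 55% and 26.9%.

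**Figure D2:**
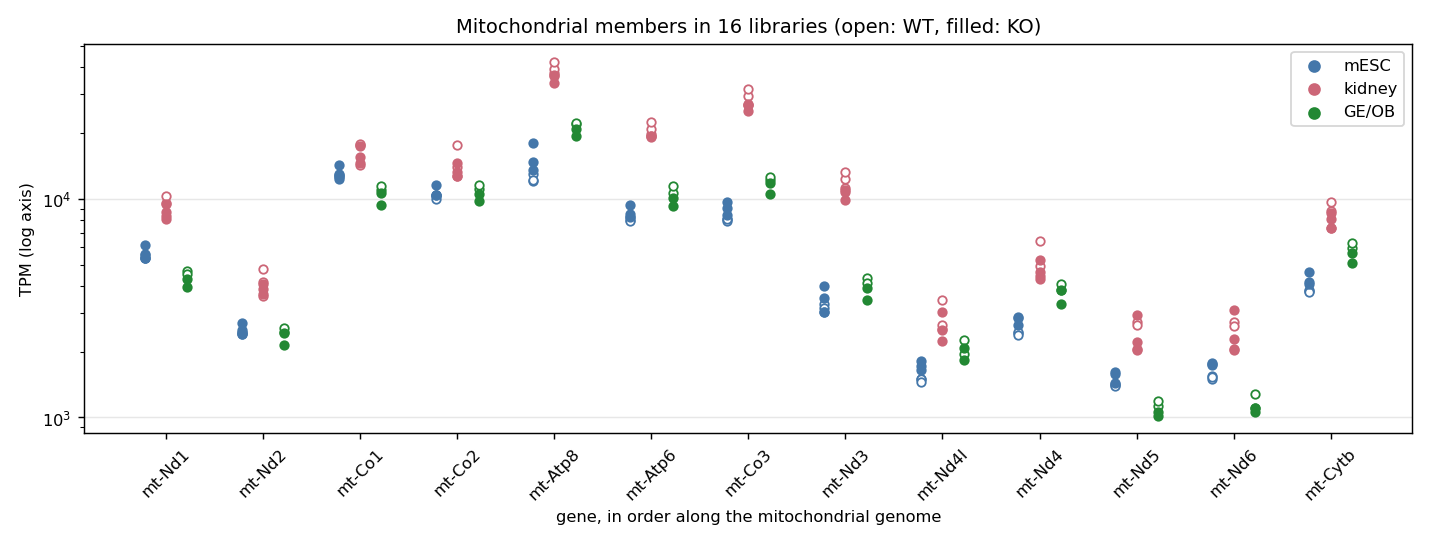
TPM of the 13 mitochondrial members on a log axis, in their order along the mitochondrial genome, with 1 point per library (open WT, filled KO). Against mESC, kidney is raised most at mt-Nd3, mt-Co3 and mt-Atp8 and least at mt-Co1, where it starts at 14203 TPM against a highest mESC value of 14225.

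mt-Atp8, the smallest member, had the highest TPM of all, with a median of 21456, and its value rests on few bases. The gene encodes a small membrane subunit of the ATP synthase and spans chrM:7766-7969 on the plus strand (mm10, GRCm38). It is 204 bases long, about the mean fragment length of these libraries (189 to 205 bases), so its effective length was 25.2 to 33.3 bases and its TPM multiplied each read accordingly. Its last 43 bases also begin mt-Atp6, and they are shown in capitals because reads from them belong to both genes.
mt-Atp8: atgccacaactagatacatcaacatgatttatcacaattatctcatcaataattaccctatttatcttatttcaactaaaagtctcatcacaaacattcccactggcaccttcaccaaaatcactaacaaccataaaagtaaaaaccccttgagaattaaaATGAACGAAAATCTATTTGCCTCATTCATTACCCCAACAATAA
Changes of this gene are given on counts below, which do not divide by the effective length. Counts of so short a gene still depend on how many fragments fit in it. In GE/OB its effective length was 32.8 and 28.1 bases in WT against 25.2 and 27.5 in KO. Its share of all TPM there was 2.20 and 2.22% in WT against 2.09 and 1.93% in KO.

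Among all members, kidney against mESC split into a mitochondrial and a nuclear pattern. The test was edgeR's quasi-likelihood test on expected counts, with Benjamini-Hochberg adjustment over all 17459 genes tested, and a gene was called where the WT and the KO libraries both passed an adjusted p of 0.05 in the same direction. Kidney had 40 members higher, all 13 mitochondrial ones and 27 nuclear ones, and 39 lower, all nuclear, beside 41.2% of all genes called higher and 37.6% called lower. The median mitochondrial member was 0.90 higher on the log2 scale in WT and 0.58 in KO, the median nuclear member 0.11 and 0.09 lower, and the median of all genes 0.08 higher in both. Scaling by library totals, which moved the median gene to 0.34 (WT) and 0.30 (KO), gave 55 higher and 29 lower. The shares of all genes called under that scaling are not given here. Among all genes, 14825 (WT) and 14640 (KO) had an unadjusted edgeR p under 0.05 with it, beside 14809 and 14741 with TMM.

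By complex, the 29 accessory subunits of complex I had 12 higher and 10 lower, the 7 assembly factors 1 higher and 4 lower, and the 16 tested nuclear complex IV genes 5 higher and 8 lower. Ndufa2, an accessory subunit of complex I, had 140 to 151 TPM in mESC and 379 to 406 in kidney, with a log2 change of 1.35 ± 0.0616 (SE) in WT and 1.39 ± 0.0623 in KO. Ndufb11, an accessory subunit of its membrane arm, had 119 to 128 TPM in mESC and 286 to 339 in kidney (log2 change 1.26 in both genotypes). mt-Nd3 rose by 1.90 ± 0.0824 in WT and 1.502 ± 0.0815 in KO, mt-Co3 by 1.83 and 1.48, and mt-Atp8 by 1.62 and 1.053. On the lower side stood Cox5a, a nuclear subunit of complex IV, with 621 to 662 TPM in mESC and 159 to 192 in kidney (log2 change -1.98 ± 0.045 in WT and -1.86 ± 0.0446 in KO). Cox6a1, the widely used isoform of subunit 6A, had 759 to 849 TPM in mESC and 351 to 401 in kidney (log2 change -1.19 in WT and -1.23 in KO). Each of these pairs of ranges is separate, and the adjusted p lay under 0.05 in both genotypes.

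GE/OB against mESC gave 80 members lower, 72 nuclear and 8 mitochondrial, and 1 higher (Cox4i2), beside 38.9% of all genes called lower and 41.6% called higher. Library totals, which put the median gene at 0.38 (WT) and 0.35 (KO), gave 69 lower and 9 higher. The shares of all genes called with them are not given here. Among all genes, 14900 (WT) and 14850 (KO) had an unadjusted edgeR p under 0.05 with library totals, beside 14909 and 14822 with TMM. The median nuclear member was lower by 0.87 (WT) and 0.83 (KO) on the log2 scale of TMM-scaled counts, and the median mitochondrial member by 0.25 and 0.63. On log2 TPM the medians were -0.18 for nuclear and 0.25 for mitochondrial members against 0.65 for all genes, so on both scales the members lay below the median gene. By TPM, 48 of 88 nuclear members (54.5%) had every GE/OB library below every mESC library and 25 (28.4%) had every one above. Among all genes tested the shares were 26.9% below and 55% above. All 7 core subunits of complex I, all 4 subunits of complex II and all 8 nuclear subunits of complex III were called lower on counts, and 15 of 16 tested nuclear complex IV genes.

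Uqcr10, a small subunit of complex III, had 566 to 576 TPM in mESC against 245, 263, 236 and 240 in GE/OB (log2 change on counts -1.86 ± 0.0578 in WT and -1.96 ± 0.0576 in KO). Cox8a, the widely used isoform of subunit 8, had 670 to 776 TPM in mESC against 293, 328, 292 and 346 in GE/OB (log2 change -1.91 and -1.90). Both were lower in GE/OB in counts and in TPM. Sdhb, the iron-sulphur subunit of complex II and its member with the highest median TPM (199.5), shows how the scale matters. It was called lower on counts (log2 change -0.59 ± 0.0521 in WT and -0.52 ± 0.0518 in KO), yet its TPM was 200.2 to 209.7 in GE/OB and 184 to 197 in mESC.

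Kidney against GE/OB gave 89 members higher, 13 mitochondrial and 76 nuclear, and 2 lower, beside 37.7% of all genes called higher and 35.9% called lower. The median nuclear member was 0.74 (WT) and 0.78 (KO) higher in kidney and the median mitochondrial member 1.42 and 1.502, with the median of all genes at 0.04 and 0.02. By TPM, 38 nuclear and 12 mitochondrial members had every kidney library above every GE/OB library and 18 nuclear members had every one below, beside 21.3% above and 53.9% below among all genes. Ndufa4, a protein of complex IV despite its complex I name, had 1080 to 1409 TPM in kidney against 569, 577, 538 and 534 in GE/OB (log2 change on counts 1.77 ± 0.0954 in WT and 1.85 ± 0.0952 in KO). Cox7b, a small subunit of the same complex, had 299.5 to 423 TPM in kidney against 180.5, 175, 161 and 149 in GE/OB (log2 change 1.76 and 1.88). mt-Nd3 was higher by 2.15 and 2.14, mt-Co3 by 1.88 and 1.83, and mt-Nd5 by 1.72 and 1.79.

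The 2 members lower in kidney were Ndufaf3 and Cox5a. Ndufaf3, an assembly factor of complex I, had 12.2 to 15.7 TPM in kidney against 30.8, 37.4, 33.8 and 31.4 in GE/OB (log2 change on counts -0.68 ± 0.121 in WT and -0.74 ± 0.118 in KO). Cox5a had 159 to 192 TPM in kidney against 289, 322, 314 and 320 in GE/OB, with a change on counts of -0.22 ± 0.0505 and -0.18 ± 0.0495. Kidney libraries also held 7069 to 15310 TPM of 9 erythroid markers, against 3211 to 3832 in GE/OB and 0.68 to 1.87 in mESC, and 1026 to 1676 TPM of 10 fibroblast markers, against 57.4 to 63.0 and 402 to 490. Without Fn1, the fibroblast list summed to 899 to 1503 TPM in kidney, 26.3 to 33.3 in GE/OB and 2.71 to 6.45 in mESC. The part of erythroid cells and fibroblasts in the differences between tissues was not tested.

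**Figure D3:**
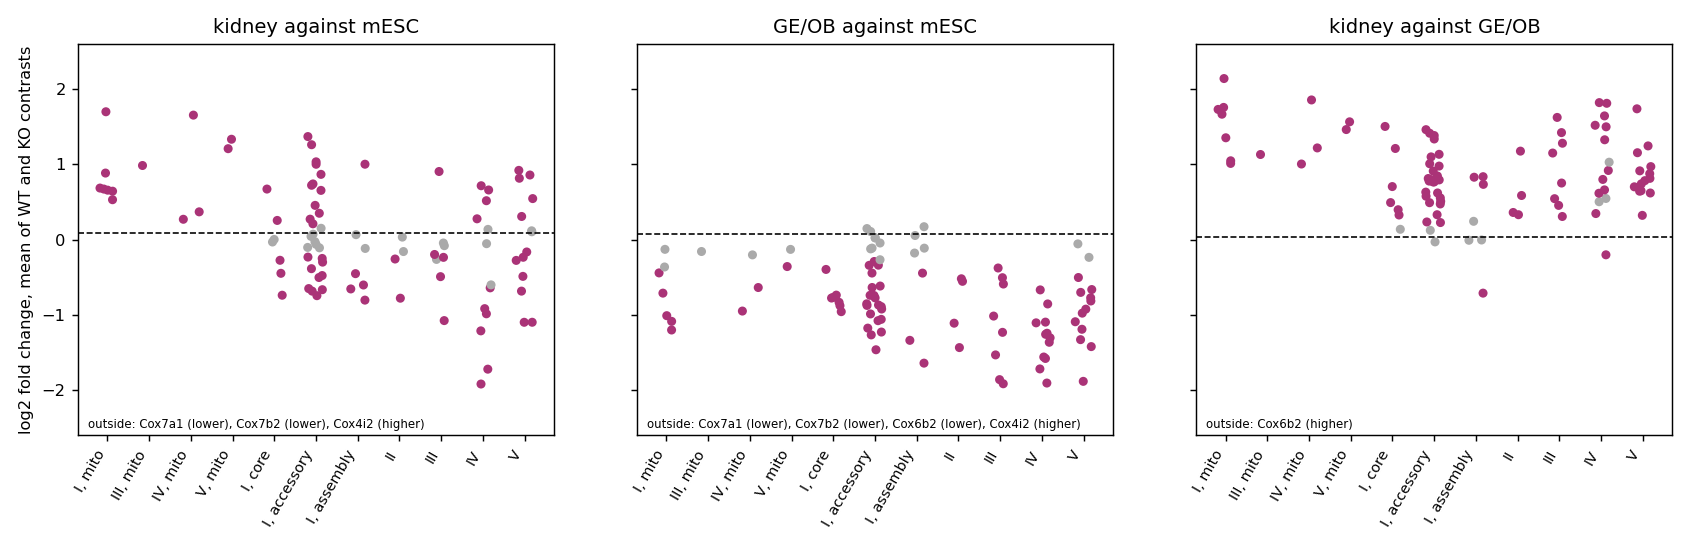
Log2 fold change on TMM-scaled counts (mean of the WT and the KO contrast) for the 101 tested members less 3 related factors, by complex and class. Purple points were called in both genotypes, grey points were not, and the dashed line is the median of all genes: mitochondrial members stand above it in kidney, nearly all members stand below it in GE/OB against mESC, and the isoforms outside the axis are named in each panel.

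Cox7a1 and Cox6b2, complex IV isoforms, were higher in mESC than in both embryonic tissues. Cox7a1, the isoform of subunit 7A known from heart and skeletal muscle, had 70.0, 62.0 and 55.6 TPM in mESC WT and 50.8, 53.9 and 51.9 in KO. It had at most 3.30 TPM in kidney and 2.55 in GE/OB, where GE/OB KO 7 had 0 counts. In mESC it made up 16.6 to 19.95% of the TPM of Cox7a1 and Cox7a2 together, against 0.2199 to 0.830% in kidney and 0 to 0.889% in GE/OB. Its log2 change in kidney against mESC was -4.90 ± 0.339 in WT and -4.72 ± 0.331 in KO, and in GE/OB -5.53 ± 0.459 and -6.15 ± 0.487. Of the 10 skeletal muscle markers, summing to 158 to 241 TPM in mESC, 25 to 62.4 in kidney and 5.56 to 7.96 in GE/OB, Mylpf alone held 153 to 238 TPM in mESC, while Acta1 held at most 0.12 there.

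Cox6b2, the isoform of subunit 6B known from testis, had 124, 134 and 117 TPM in mESC WT and 130, 147 and 158 in KO, 32.4 to 48.3 in kidney, and 4.32, 6.72, 5.76 and 8.57 in GE/OB. Its share of the TPM of Cox6b1 and Cox6b2 fell in steps without overlap, from 12.7 to 16.8% in mESC through 3.95 to 5.87% in kidney to 0.641 to 1.27% in GE/OB. On counts it was lower in kidney than in mESC by 1.48 ± 0.112 (log2) in WT and 1.96 ± 0.113 in KO, and lower in GE/OB by 5.28 ± 0.197 and 4.97 ± 0.178. Cox6b1, the widely used isoform, had 759 to 801 TPM in mESC, 748 to 837 in kidney and 666 to 735 in GE/OB. It was not called in kidney against mESC (log2 change -0.07, adjusted p = 0.212 in WT and -0.04, adjusted p = 0.497 in KO, edgeR).

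Cox4i2, the isoform of subunit 4 known from lung and from low oxygen, went the other way. It had 1 count in mESC WT 1 and 0 in the other 5 mESC libraries, 19 to 92 counts in kidney (2.38 to 5.13 TPM) and 7 to 27 counts in GE/OB (1.42 to 3.16 TPM). Even in kidney it was 0.431 to 0.9% of the TPM of the subunit 4 genes. Cox7b2 had 5 to 14 counts in each mESC library and 0 or 1 count in every kidney and GE/OB library. Both were called in the comparisons with mESC, but with such counts no fold is given.

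Atp5g1 and Atp5g3 encode the same mature subunit c of the ATP synthase rotor with different import sequences. Atp5g1 had 639 to 694 TPM in mESC, 269.6 to 305 in kidney and 196, 241, 227 and 209 in GE/OB. It made up 42.95 to 44.97%, 29.2 to 32.2% and 25.3 to 29.0% of the TPM of Atp5g1 and Atp5g3 together. Atp5g2, the other gene of the set, was listed at 0 in every library. Whether that 0 reflects absent RNA or how the gene was quantified was not tested. The log2 change of Atp5g1 on counts was -1.12 ± 0.0629 (WT) and -1.08 ± 0.0627 (KO) in kidney against mESC, and -1.90 ± 0.0761 and -1.86 ± 0.0753 in GE/OB against mESC. Atp5g3 was lower than in mESC as well, by 0.53 and 0.45 in kidney and 1.21 and 1.17 in GE/OB. Ndufa4l2 was at most 0.791% of its set with Ndufa4 in any library.

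**Figure D4:**
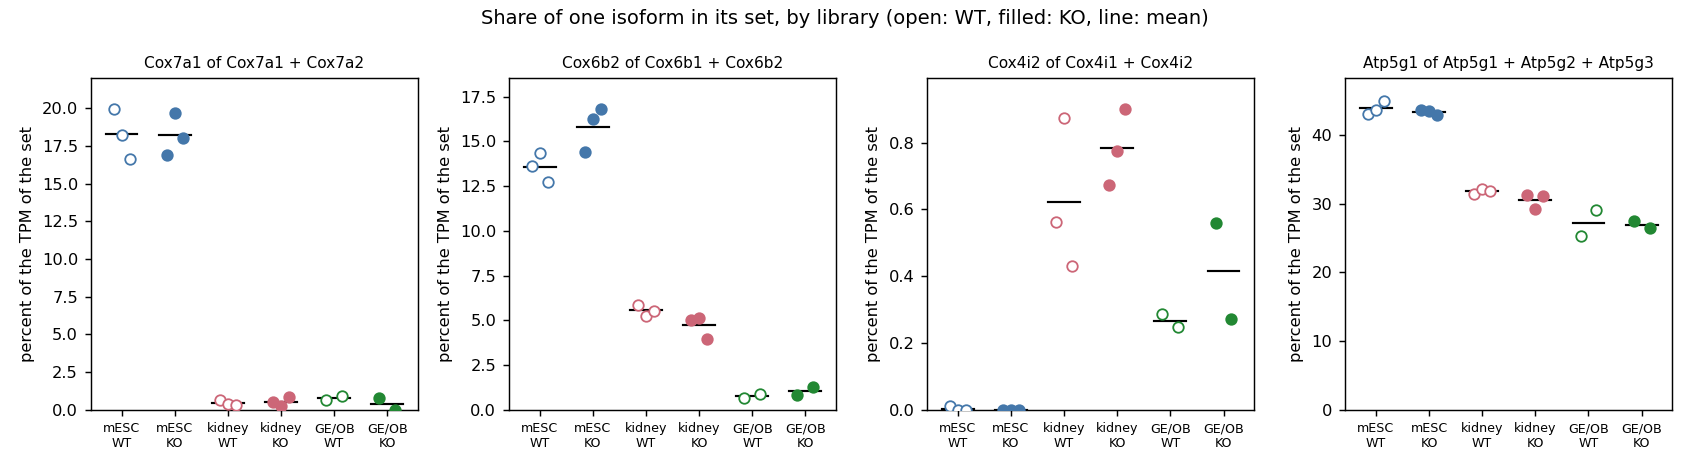
Share of 1 isoform in the TPM of its set, by library (open WT, filled KO, lines for group means). Cox7a1 and Cox6b2 are highest in mESC, at 16.6 to 19.95% and 12.7 to 16.8%, Cox4i2 stays under 1% everywhere and near 0 in mESC, and Atp5g1 falls from 42.95 to 44.97% in mESC to 25.3 to 29.0% in GE/OB. Atp5g2 was listed at 0 in every library, so the Atp5g1 share is of Atp5g1 and Atp5g3 alone.

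The promoters of the nuclear members were searched on both strands for 3 motifs of factors known to drive respiratory chain genes: the NRF1 core GCGCATGC, the ETS family site CCGGAAG bound by GABP, and the YY1 site AAGATGGC. RefSeq promoters (GRCm38.p6, 300 bases around the start) matched 76 of 92 nuclear members by symbol or synonym. The NRF1 core was in 12 of 76 (15.8%), the ETS site in 17 (22.4%) and the YY1 site in 11, counted per gene over its listed starts. Among all 27025 genes the shares were 3.05%, 9.93% and 3.19%, and among all 32851 promoters 2.71%, 8.86% and 2.75%. None of the 3 motifs was in the promoters of 42 of the 76 members (55.3%), beside 85.1% of all genes, and these include Cox7a1, its partner Cox7a2 and Cox6b2. The windows of Cox7a1 and Cox6b2 are shown first as those of the isoforms described above, at chr7:30183921-30184220 (plus strand) and chr7:4753045-4753344 (minus strand).
Cox7a1: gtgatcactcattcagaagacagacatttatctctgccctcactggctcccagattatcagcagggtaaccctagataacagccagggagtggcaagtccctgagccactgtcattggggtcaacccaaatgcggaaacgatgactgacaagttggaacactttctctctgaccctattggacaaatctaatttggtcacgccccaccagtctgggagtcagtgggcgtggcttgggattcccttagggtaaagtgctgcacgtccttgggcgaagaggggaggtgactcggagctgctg
Cox6b2: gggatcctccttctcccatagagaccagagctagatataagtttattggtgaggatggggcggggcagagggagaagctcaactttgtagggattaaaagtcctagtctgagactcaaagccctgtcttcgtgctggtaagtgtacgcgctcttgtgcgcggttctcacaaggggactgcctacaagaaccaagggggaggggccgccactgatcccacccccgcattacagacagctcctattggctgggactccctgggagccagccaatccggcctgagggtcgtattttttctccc
Beside them stand Cox6a1 (chr5:115348909-115349208, minus strand), the widely used 6A isoform, and Ndufs8 (chr19:3912725-3913024, minus strand), described below, chosen after the search because each holds a match. Capitals mark the matches, read here along the gene: in Cox6a1 the NRF1 core, which matches on both strands in overlapping letters and counts as 2, and in both the reverse complement of the ETS site.
Cox6a1: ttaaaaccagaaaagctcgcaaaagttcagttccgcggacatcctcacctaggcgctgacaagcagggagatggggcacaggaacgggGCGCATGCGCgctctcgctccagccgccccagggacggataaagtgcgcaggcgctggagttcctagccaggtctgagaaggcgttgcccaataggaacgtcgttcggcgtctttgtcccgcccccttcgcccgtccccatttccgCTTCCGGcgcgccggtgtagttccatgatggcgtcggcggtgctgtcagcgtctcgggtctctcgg
Ndufs8: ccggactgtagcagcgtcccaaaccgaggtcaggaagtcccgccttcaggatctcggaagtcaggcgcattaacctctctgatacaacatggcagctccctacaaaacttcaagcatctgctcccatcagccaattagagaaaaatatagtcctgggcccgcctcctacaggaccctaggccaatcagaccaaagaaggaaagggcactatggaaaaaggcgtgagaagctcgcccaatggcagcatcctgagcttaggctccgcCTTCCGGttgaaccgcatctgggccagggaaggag
A match is a description of these letters and not a measured site.

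KO against WT in mESC called 4 members, 3 of complex I and 1 of complex V, with log2 changes between -0.22 and 0.27. Among all genes 2.27% were called higher and 4.59% lower, and of the 101 members 2 were higher and 2 lower, 1.98% each. Ndufv3, a small accessory subunit of the NADH-oxidising part of complex I, had 67.2, 68.1 and 68.5 CPM (counts relative to the TMM-scaled library size) in WT and 61.6, 56.0 and 57.5 in KO (log2 change -0.22 ± 0.0522, edgeR adjusted p = 0.018). Ndufs8, a core subunit that carries iron-sulphur clusters, had 40.2, 41.9 and 42.8 CPM in WT and 36.9, 35.8 and 35.9 in KO (log2 change -0.20 ± 0.0547, edgeR adjusted p = 0.0365). In both, every KO well lay below every WT well. Ndufa12, an accessory subunit of complex I, had 35.3, 36.1 and 36.0 CPM in WT and 45.99, 39.8 and 41.2 in KO (log2 change 0.25 ± 0.0697, edgeR adjusted p = 0.0442). mt-Atp8 had 264, 287 and 297 CPM in WT and 340, 366 and 317 in KO (log2 change 0.27 ± 0.0732, edgeR adjusted p = 0.0365). In both, every KO well lay above every WT well.

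These 4 calls depended on single wells and settings, and mt-Atp8 missed the threshold when gene lengths entered the fit (DESeq2 adjusted p = 0.0546). The log2 change of mt-Atp6, which overlaps mt-Atp8, was 0.05 ± 0.0659 (edgeR adjusted p = 0.738). With 1 well left out, 0 to 7 members were called: 0 without any of the WT wells or without KO 2, 1 without KO 3 and 7 without KO 1. A fit on the mESC libraries alone called 15 members, 10 higher and 5 lower, and DESeq2 called 5. The shares of all genes called in these alternative fits are not given here. At an unadjusted edgeR p under 0.05, 18 of 101 members passed beside 3710 of 17459 genes. More genes passed that p in the fit on mESC alone, 27 members beside 5311 genes, and without KO 1, 33 members beside 4052 genes. Under DESeq2 it was 18 members beside 3501 genes (unadjusted p under 0.05). The median of the 88 nuclear members was -0.08, that of the 13 mitochondrial members 0.08 and that of all genes -0.03. By TPM, which is not the tested scale, 9 of 13 mitochondrial members had every KO well above every WT well and 0 had every one below, beside 17.9% and 13% of all genes, and 10 of 88 nuclear members stood above and 12 below.

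The mitochondrial share of TPM in mESC was 8.10% ± 0.643 (SD, n = 3) in KO and 7.31% ± 0.0956 (SD, n = 3) in WT. The difference, 0.788 points, had no overlap between the genotypes (exact permutation test, two-sided, p = 0.1, the smallest that 3 against 3 allows). It was 0.420 points without KO 2, the well with the highest share and the fewest counts of all libraries. In the same comparison 3 of 10 fibroblast markers (Thbs1, Col3a1 and Lox) were called lower, and the list's median log2 change was -0.83. Without Fn1, which held nearly all of its TPM in mESC, the list summed to 5.11 to 6.45 TPM in WT and 2.71 to 3.91 in KO. The muscle marker Mylpf was called higher, and the part of feeder cells or of the later passage in these values was not tested.

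In kidney, KO against WT called 0 members by edgeR beside 0.0344% of all genes called higher and 0.189% called lower. DESeq2 called 2 lower, mt-Atp8 and mt-Nd3, and 19 of 101 members had an unadjusted edgeR p under 0.05 beside 1327 of 17459 genes. With DESeq2, 21 members and 1173 genes had an unadjusted p under 0.05, and its share of all genes called is not given here. All 13 mitochondrial members had a negative change (12 without KO 9), with log2 changes from -0.31 to -0.08 and a median of -0.21, while the median nuclear member was at -0.06 and the median of all genes at 0. The mitochondrial median was -0.11 without kidney WT 3, beside a nuclear median of -0.06, and -0.29 without WT 1. mt-Atp8 had 875, 822 and 902 CPM in WT and 720, 750 and 651 in KO (log2 change -0.29 ± 0.0727, edgeR adjusted p = 0.174). mt-Nd3 had 1402, 1269 and 1552 CPM in WT and 1172, 1183 and 1041 in KO (log2 change -0.31 ± 0.0796, edgeR adjusted p = 0.18). In neither did the genotypes overlap.

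mt-Co3 had 12650, 11710 and 14290 CPM in WT and 11000, 11360 and 10310 in KO (log2 change -0.24, edgeR adjusted p = 0.302), and mt-Atp6 had 7019, 7457 and 8344 in WT and 6468, 6700 and 6503 in KO (log2 change -0.21, edgeR adjusted p = 0.387). By TPM, 3 of 13 mitochondrial members had every KO library below every WT library, beside 2.16% of all genes, and 0 had every one above, beside 14.2%. The mitochondrial share was 15.4% ± 0.278 (SD, n = 3) in KO and 16.9% ± 1.11 (SD, n = 3) in WT, with overlap (exact permutation test, two-sided, p = 0.2). In the same libraries the 10 muscle markers summed to 49.4 to 62.4 TPM in WT and 24.9 to 32.3 in KO, with 4 of 9 tested called lower. The 9 erythroid markers summed to 9315 to 15310 in WT and 7069 to 10400 in KO, which overlap, with 0 called. The part of either list in the mitochondrial values was not tested.

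In GE/OB, KO against WT also called 0 members by edgeR beside 0.0401% of all genes called higher and 0.0229% called lower. DESeq2 called 1 lower, mt-Atp8, and 14 of 101 members had an unadjusted edgeR p under 0.05 beside 525 of 17459 genes. With DESeq2, 19 members and 441 genes had an unadjusted p under 0.05, and its share of all genes called is not given here. All 13 mitochondrial members had a negative change here too, from -0.37 to -0.17 on the log2 scale with a median of -0.20, against -0.08 for the median nuclear member and 0.02 for all genes. mt-Atp8 had 346 and 300 CPM in WT and 251 and 248 in KO (log2 change -0.37 ± 0.0898, edgeR adjusted p = 0.656). mt-Nd3 had 332 and 305 CPM in WT and 273 and 242 in KO (log2 change -0.30, edgeR adjusted p = 1), and mt-Atp6 had 2497 and 2680 in WT and 2300 and 2096 in KO (log2 change -0.24, edgeR adjusted p = 1). Ndufa5, an accessory subunit of complex I, had 25.4 and 28.0 CPM in WT and 23.8 and 21.6 in KO (log2 change -0.23, edgeR adjusted p = 1). In all 4 both KO libraries lay below both WT libraries.

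By TPM, 11 of 13 mitochondrial and 28 of 88 nuclear members had both GE/OB KO libraries below both WT libraries, beside 8.81% of all genes, and 0 and 8 had them above, beside 20.1%. The mitochondrial share was 8.42% ± 0.582 (SD, n = 2) in KO and 9.40% ± 0.22 (SD, n = 2) in WT, a difference of -0.981 points (exact permutation test, two-sided, p = 0.333, the smallest that 2 against 2 allows). Without KO 7 the difference was -0.569 points. The KO libraries were female and the WT libraries male, so these values belong to genotype and sex together.

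**Figure D5:**
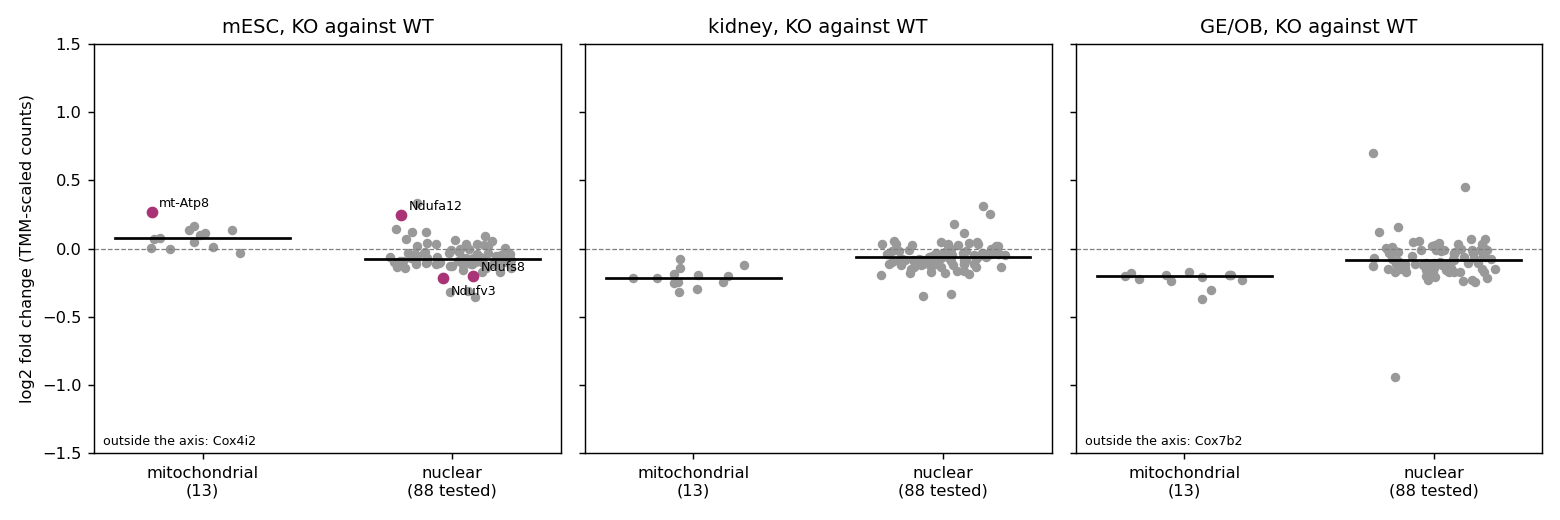
Log2 fold change of KO against WT on TMM-scaled counts for the 13 mitochondrial and 88 tested nuclear members in each tissue. Purple points passed an adjusted p of 0.05 (4, all in mESC), lines are medians, and Cox4i2 and Cox7b2, with few counts, fall outside the axis where named: the mitochondrial median is 0.08 in mESC and -0.21 and -0.20 in kidney and GE/OB.

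The KO effects in mESC and in the embryonic tissues were compared with each other by interaction contrasts of the same fit. mt-Atp8 was the 1 member called in mESC minus kidney (difference of log2 changes 0.56 ± 0.103, edgeR adjusted p = 0.00669) and in mESC minus GE/OB (0.64 ± 0.116, edgeR adjusted p = 0.0103), where 2.24% and 1.08% of all genes were called. For kidney minus GE/OB 0 members were called by edgeR beside 0.0344% of all genes, with 2 of 101 members and 739 of 17459 genes under an unadjusted p of 0.05, and DESeq2 also called 0. The mESC minus kidney difference of mt-Atp8 passed with each library left out in turn and under DESeq2 with the same design and filter. The fit with gene lengths, in which mt-Atp8 missed its mESC call, was not among the alternatives for these contrasts. The mESC minus GE/OB difference did not pass without GE/OB WT 1 (0.53, edgeR adjusted p = 0.0856). For all 13 mitochondrial members the mESC change exceeded that in kidney, by 0.11 to 0.56, and that in GE/OB, by 0.16 to 0.64. The median difference was -0.03 (kidney) and -0.05 (GE/OB) for all genes, and -0.03 and 0.01 for nuclear members. These contrasts share the mESC libraries, so the counts are not independent of each other. The 13 genes also share long precursors and the same libraries, so they are not 13 separate observations.

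Further genes that serve the chain were read from lists, beside the 2.27% of all genes called higher and 4.59% called lower in mESC. Of them, 1 of 10 tested assembly factors of complexes II, III and V was called lower, which was Uqcc2, a complex III assembly factor (log2 change -0.60 ± 0.0595, edgeR adjusted p = 1.07e-05). Of 7 complex I assembly genes outside the Ndufaf names 1 was called higher, Acad9, also an acyl-CoA dehydrogenase (0.23 ± 0.0557, edgeR adjusted p = 0.0218). Of 18 citric acid cycle and pyruvate dehydrogenase genes 1 was called lower, Suclg2, a subunit of succinyl-CoA ligase (-0.32 ± 0.0653, edgeR adjusted p = 0.00721). Of 76 mitochondrial ribosomal protein genes 4 were called lower, with Mrpl33 (-0.40 ± 0.0786, edgeR adjusted p = 0.00484) and Mrpl45 (-0.22 ± 0.0529, edgeR adjusted p = 0.0206) first by p, and 0 higher.

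The 20 complex IV assembly genes, 23 genes of mitochondrial DNA upkeep and RNA handling and 12 regulators of mitochondrial biogenesis had 0 called in mESC, and all these lists had 0 called in kidney and in GE/OB. Between tissues the shares of all genes were 38.9% lower and 41.6% higher for GE/OB against mESC, 37.6% lower and 41.2% higher for kidney against mESC, and 37.7% higher and 35.9% lower for kidney against GE/OB. Of the 76 mitochondrial ribosomal protein genes 71 were lower and 2 higher in GE/OB than in mESC (median WT log2 change -1.06), 44 lower and 19 higher in kidney than in mESC (-0.37), and 70 higher and 1 lower in kidney than in GE/OB (0.74). Of the 23 upkeep and RNA handling genes, 20 were lower and 1 higher in GE/OB than in mESC, and 15 lower and 4 higher in kidney than in mESC. All 13 mitochondrial members were higher in that last comparison. The 18 citric acid cycle genes had 12 lower and 4 higher in kidney than in mESC, and 16 lower and 1 higher in GE/OB than in mESC. The 20 complex IV assembly genes had 9 lower and 9 higher in kidney and 12 lower and 3 higher in GE/OB, and the 10 for complexes II, III and V had 5 lower and 3 higher, then 5 lower and 2 higher. The 7 further complex I assembly genes had 5 lower and 1 higher in kidney and 6 lower and 1 higher in GE/OB, and the 12 regulators 6 lower and 3 higher, then 7 lower and 3 higher.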

How the data were processed

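PolyA RNA from 6 mESC, 6 kidney and 4 GE/OB samples was sequenced by the authors after an unstranded TruSeq preparation. The authors aligned the paired reads to mm10 with bowtie2 and quantified each library with RSEM (versions not given in the sources used here). The deposited expected counts are RSEM's estimated counts per gene, which split reads that fit several genes, so the 13 mitochondrial genes and nuclear members with close pseudogene or paralog copies carry that uncertainty. The deposited TPM values were scaled by the authors to the same total in every library. The reporter assay and chromosome contact files of the same series were not used here.

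Expected counts were rounded and fitted with edgeR 4.0.16 in R 4.3.3 (TMM factors, filterByExpr, quasi-likelihood test, 1 coefficient per tissue and genotype over 16 libraries, Benjamini-Hochberg adjustment over 17459 genes, threshold 0.05). The study's code used DESeq2, which was an alternative here (version 1.42.0). Shares were computed from TPM in pandas 2.3.3 and tested by exact permutation of libraries. TPM folds took a pseudocount of 0.1 and were used for medians only. Named were the 13 mitochondrial members, isoform sets, called members or the 4 with the smallest p in each genotype comparison, the 6 called members with the largest change in each direction between tissues, the member with the highest median TPM of each complex, and for each further list up to 2 called genes. The members, lists and tests were chosen with earlier results of these data known. On simulated counts for 17459 genes, 62% of 100 genes changed 1.5-fold were recovered in mESC, 65% in kidney and 49% in GE/OB. At 2-fold it was 59%, 73% and 59%, so in mESC recovery was not higher for the larger change. False calls numbered 2, 12 and 5. Changes under 1.5-fold are not covered by these figures. The alternatives were DESeq2, other scalings, filters, thresholds and fits, a sex term, a replicate block, and each library left out.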

Additional observations from a re-analysis of the deposited data

Results flagged for a closer look

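4 differences between the KO effects in different tissues passed their own test, and they are not separate results. mt-Atp8 was the 1 of 101 members called in mESC minus kidney and in mESC minus GE/OB, beside 2.24% and 1.08% of all genes. mt-Atp6, which overlaps it, was called in neither. mt-Atp8 is also 1 of the 13 genes in the mitochondrial share. Alone it took 1.24% (WT) and 1.54% (KO) of TPM in mESC, and 3.97% and 3.57% in kidney. For mt-Atp8 the KO effect (log2 change of TMM-scaled counts) was 0.27 in mESC, -0.29 in kidney and -0.37 in GE/OB, and the difference was 0.56 for mESC minus kidney (edgeR adjusted p = 0.00669) and 0.64 for mESC minus GE/OB (edgeR adjusted p = 0.0103), the latter not passing without GE/OB WT 1 (0.53, edgeR adjusted p = 0.0856). The mitochondrial share of TPM differed in its KO effect by 2.27 percentage points for mESC minus kidney (0.788 against -1.48; genotype labels permuted within each tissue, exact, two-sided, p = 0.01, adjusted over 3 pairs 0.025), and on expected counts by 1.01 points, which did not pass (exact permutation, p = 0.06). For mESC minus GE/OB the difference was 1.77 points (0.788 against -0.981; exact permutation, p = 0.0167, the smallest possible, adjusted 0.025). For kidney minus GE/OB it was -0.496 points (exact permutation, p = 0.767). The tests on the share were added after its values were seen. A fit with gene lengths was not among the alternatives for the mt-Atp8 differences, though that gene is about as long as the mean fragment. mESC wells come from 1 clone per genotype, so clone, passage and genotype cannot be told apart in the mESC effect. Tests for single outlying libraries were not made, since no group has 4 or more samples.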

How the results depend on the processing

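Against 4 members called in KO against WT in mESC, the count was 2 under library totals. With the replicate number as a block it was 1, although the wells share only a number. Correlations between same-numbered wells were 0.006, 0.016 and 0.045. WT 1 correlated best with KO 2 (0.01), while WT 2 and WT 3 correlated best with the KO well of their own number. In KO against WT in mESC 0 passed an adjusted edgeR p of 0.01, and a fit on mESC alone called 15. Leaving out 1 well gave 0 to 7. DESeq2 called 2 in kidney and 1 in GE/OB in place of 0. The shares of all genes called under the alternatives of this paragraph are not given here. In the difference mESC minus kidney, DESeq2 called 4 and library totals 3 in place of 1, and 1 to 3 with a library left out; for mESC minus GE/OB it was 0 to 1. Where a library was left out of GE/OB, the remaining one was assumed to vary like the other groups. Within 1 genotype the share tests cannot reach 0.05: the mitochondrial difference was 9.59 (WT) and 7.32 points (KO) for kidney minus mESC, 7.50 and 7.01 for kidney minus GE/OB, and 2.09 and 0.316 for GE/OB minus mESC, and the nuclear one -0.535 and -0.584 for GE/OB minus mESC and 0.474 and 0.543 for kidney minus GE/OB. GE/OB minus mESC turned to -0.679 points on expected counts and was 0.498 without mt-Atp8 and mt-Nd4l, added after seeing the data, and 0.985 to 1.501 with a library left out. The nuclear kidney minus mESC difference passed on expected counts (-0.0341 points) and ranged from -0.068 to -0.0334 with a library left out. The difference of the KO effect on the mitochondrial share was 1.01 points on counts for mESC minus kidney (exact permutation, p = 0.06), and 0.199 for kidney minus GE/OB as a percent of member TPM, a turned sign. With the block the mESC share difference had p = 0.25 (exact sign permutation), and no call of the share changed. The cause of these shifts was not tested.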
